A study of Mus musculus with 24 samples.

Results

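Gfap, Vim, Nes, Cd44, S1pr3 and Aspg are 6 genes used to read out the reactive state of astrocytes and the cytoskeletal response to brain injury. They were taken by name, 6 of the 14769 genes listed in the 4 deposited tables. All 6 were listed in 3 of the tables. The table that sets CL KO beside CL WT held 5 of them and did not list Aspg. The mice were males of 3 to 4 months, and every one underwent surgery in which the middle cerebral artery was blocked for 1 h and then reopened, with cortex taken after 1 day. Wild-type (WT) animals were set beside knockouts (KO) of ciRS-7. This RNA, also called Cdr1as, is a circle that binds a microRNA. The strain entry, C57BL/6N-Cdr1asem1Nikr, is the same for both genotypes. Each of 6 WT and 6 KO animals gave a CL and a PI sample of cortex, marks that the labels do not spell out, so the 24 libraries form 4 groups of 6, CL and PI of WT and CL and PI of KO. No group without surgery is among them, and the KO is 1 edited line. Same-numbered CL and PI libraries came from the same animal, and animals are the replicates.

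After injury to the brain, astrocytes enlarge, extend processes and raise their intermediate filaments, the rope-like proteins that give the cell its mechanical strength. Gfap, the glial fibrillary acidic protein, is the filament that defines the astrocyte, while vimentin and nestin assemble with it, and vimentin is also made by endothelial cells, fibroblasts and microglia. Cytokine receptors that share the subunit gp130 act on reactive astrocytes through the transcription factor STAT3. Cd44 is a surface receptor for the matrix sugar hyaluronan, S1pr3 is a receptor for the lipid sphingosine 1-phosphate, and Aspg encodes an asparaginase, an enzyme that cleaves asparagine. All but Nes belong to a widely used set of genes raised in reactive astrocytes of several injury models.

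The stretch below shows, for each gene, the searched motif found in the window from 250 bases before to 50 bases after its RefSeq start (GRCm38.p6, 6 of 6 genes matched by symbol), since genes that move together invite a look at shared motifs. Capitals mark the match, and each sequence is on the gene's own strand.
Gfap: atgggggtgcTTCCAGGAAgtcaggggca
Vim: cctaacagtgtTATAAAagcagcgccctt
Nes: tagggaCCGCCCcttttCCGCCCggccgg
Cd44: gggggggagggGGGCGGccattctcttct
S1pr3: atccagagactGGGCGGggacgtagcccg
Aspg: acccagaaaacCCGCCCctttttgaggcc
They lie at chr11:102897184-102897212 (minus strand), chr2:13574268-13574296 (plus), chr3:87971014-87971042 (plus), chr2:102901645-102901673 (minus), chr13:51408587-51408615 (plus) and chr12:112106610-112106638 (plus). Gfap held 1 match to the STAT motif TTCNNNGAA, from base -2 to base 7 of the start, where base 1 is the first transcribed base. Vim held a TATA box (TATAAA) from -32 to -27. The RefSeq starts of Gfap and Vim, and the stretches shown for them, lie inside the GENCODE spans given below for these genes. Nes held 2 GC boxes (GGGCGG, here read on the other strand), and Cd44, S1pr3 and Aspg held 1 each. None of the 6 windows matched the AP-1 motif TGANTCA. Both strands were searched, and no matches overlapped. Of 32851 mouse promoters of the same length, 8.3% held the STAT motif, 7.81% the AP-1 motif, 13.6% the TATA box and 35.7% the GC box. No searched motif was found in all 6 windows.

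Depth, recovered from the spacing of low values, ran from 5.28 to 10.49 M reads per library, with 77.6% to 90.8% of low values within 0.03 read of a whole number. Levels are in CPM, read counts scaled to a common library total, mostly as log2 CPM, and 3 reads correspond to 0.286 to 0.568 CPM. In the tables of KO and WT, Cdr1as stood at 2610 to 3800 CPM in the WT groups and at no more than 0.166 CPM in the KO groups, so the labels matched the target. In every gene and group the 2 lowest of 6 deposited values are equal and so are the 2 highest. This was read as values drawn in to the group quartiles. The 4 inner values were solved from them and averaged (a trimmed mean), and the test allows for the altered spread. Deposited ranges are therefore narrower than the originals, and groups that do not overlap here may have overlapped before.

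Within WT, the comparison of PI with CL asked how the cortex differed between the samples so marked in the same operated animals. Of the 6 genes, 5 were higher in PI and passed an adjusted p of 0.05, namely Gfap, Vim, Nes, Cd44 and Aspg, by 2.73-fold to 5.13-fold. Of all 14489 genes, 5.20% were called higher (754) and 5.40% lower (783). S1pr3 missed the threshold. The test used did not pair the PI and CL libraries of an animal. Within KO, the same 5 of 6 genes were called higher in PI, by 3.07-fold to 4.56-fold, where 5.11% of 14338 genes were called higher (732) and 4.94% lower (708). With every group centred on its own median gene, a shift of 0.0329 in WT and 0.0352 in KO on the log2 scale, the share of calls that were higher fell from 49.1% to 37.7% in WT and from 50.8% to 36.7% in KO, and the number of the 6 genes called stayed at 5 in each. The rule for listing a gene is not given in the sources used here. Aspg is not listed where only CL groups are compared, so it may have entered the tables of PI and CL through its PI level, and its call is conditional on that. Of the 5 genes listed in the CL table too, 4 were called higher in each genotype, where 4.85% of 14224 genes listed there were called higher in WT and 4.79% of 14142 in KO. In bulk cortex, more cells of a type and more RNA per cell cannot be told apart.

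**Figure D1:**
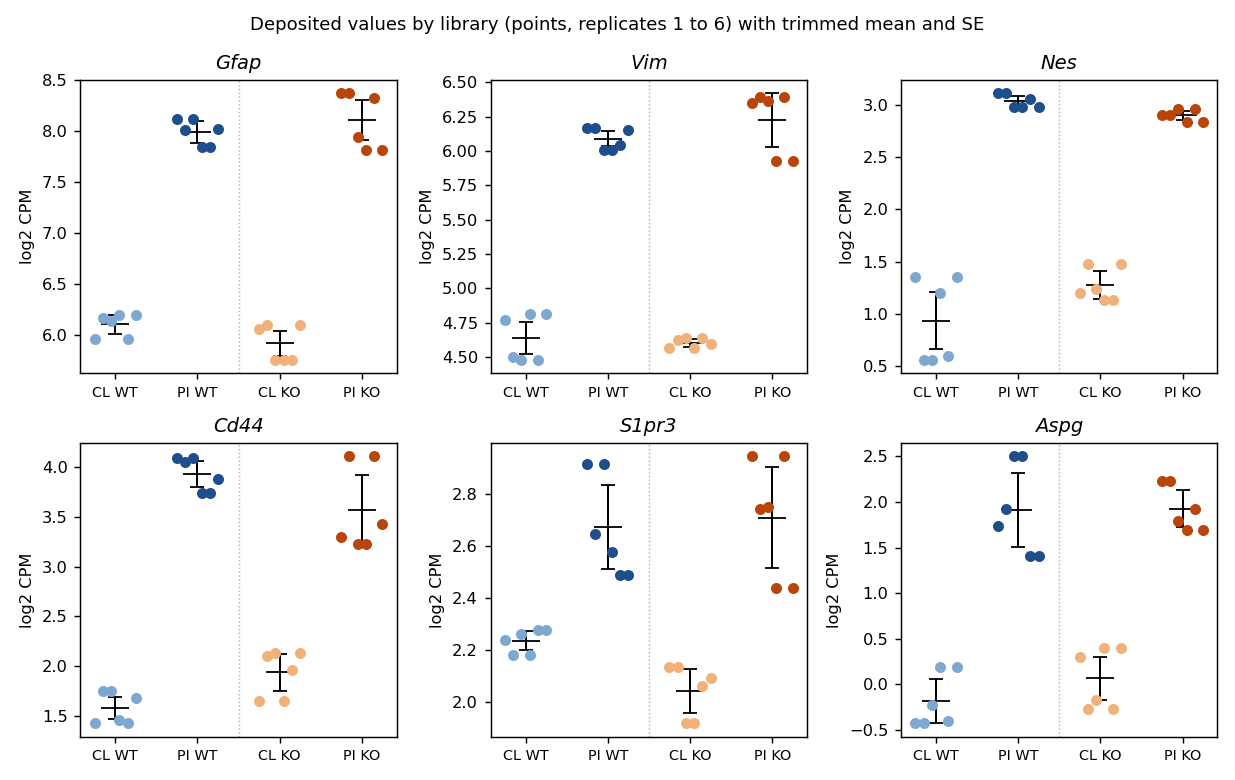
Deposited log2 CPM of the 6 genes (1 panel each) in the 6 libraries of each group, from the 2 tables of PI and CL; points are libraries, long bars are trimmed means and error bars are their SE. For each gene the PI points lie above the CL points of the same genotype, with the smallest gap for S1pr3.

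Gfap was the most abundant of the 6. In CL WT its deposited values ran from 5.97 to 6.20 log2 CPM with a median of 6.16, and in PI WT from 7.84 to 8.12 with a median of 8.01. In CL KO they ran from 5.76 to 6.10 (median 5.91), and in PI KO from 7.82 to 8.37 (median 8.14). Every PI library stood above every CL library of its genotype. Gfap rose by 1.88 on the log2 scale in WT (SE 0.11, 95% interval 1.65 to 2.12, adjusted p = 1.87e-06, moderated trimmed-mean test). It rose by 2.19 in KO (SE 0.16, 1.83 to 2.54, adjusted p = 8.47e-06). In GENCODE M21 on GRCm38 the gene lies on chromosome 11 from 102887336 to 102900912, on the minus strand.

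Vim, the filament found in many cell types, ran from 4.48 to 4.81 log2 CPM in CL WT (median 4.63) and from 6.01 to 6.16 in PI WT (median 6.10). In CL KO the 6 libraries lay close together, from 4.56 to 4.64 (median 4.61), and in PI KO they spread from 5.93 to 6.39 (median 6.35). In PI KO, libraries 4 and 6 shared the lowest value, 5.93, and the other 4 stood between 6.35 and 6.39. Vim rose by 1.45 in WT (SE 0.10, 1.22 to 1.68, adjusted p = 7.66e-06) and by 1.62 in KO (SE 0.15, 1.29 to 1.94, adjusted p = 4.57e-05), the smallest increase of the 3 filaments in WT and level with Nes in KO. It is on chromosome 2 from 13573927 to 13582826, on the plus strand.

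Nes, known as a filament of neural progenitors that reactive astrocytes also make, was low in CL. Its values ran from 0.56 to 1.35 log2 CPM in CL WT (median 0.90) and from 1.14 to 1.48 in CL KO (median 1.22). In PI they were tight, from 2.98 to 3.11 in PI WT (median 3.02) and from 2.84 to 2.96 in PI KO (median 2.90). CL WT split into libraries 1, 4 and 6 at 1.20 to 1.35 and libraries 2, 3 and 5 at 0.56 to 0.60, and the SE of the CL WT mean was 0.28 against 0.05 in PI WT. Nes rose by 2.10 in WT (SE 0.24, 1.57 to 2.63, adjusted p = 0.000217) and by 1.62 in KO (SE 0.18, 1.22 to 2.02, adjusted p = 0.000223). The CL WT values rest on about 8.5 to 22.2 reads per library. The gene is on chromosome 3 from 87971078 to 87980451, on the plus strand.

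Cd44, the hyaluronan receptor, showed the highest fold of the 6 in WT. It ran from 1.42 to 1.74 log2 CPM in CL WT (median 1.56) and from 3.74 to 4.10 in PI WT (median 3.97). In KO it ran from 1.64 to 2.13 in CL (median 2.03) and from 3.23 to 4.11 in PI (median 3.36). The PI KO libraries were divided, with libraries 2 and 5 at 4.11 and the other 4 between 3.23 and 3.43. Cd44 rose by 2.36 in WT (SE 0.16, 2.01 to 2.71, adjusted p = 5.7e-06) and by 1.63 in KO (SE 0.30, 0.98 to 2.29, adjusted p = 0.00504). It spans 102811141 to 102901665 of chromosome 2, on the minus strand.

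S1pr3 differed least between sides. Its values ran from 2.18 to 2.28 log2 CPM in CL WT (median 2.25) and from 2.49 to 2.92 in PI WT (median 2.61). In KO they ran from 1.92 to 2.13 in CL (median 2.08) and from 2.44 to 2.95 in PI (median 2.75). The deposited values did not overlap between sides, yet the PI libraries were spread over a wider range than the CL libraries. The difference was 0.44 in WT (SE 0.17, 0.07 to 0.81, adjusted p = 0.129 by the moderated trimmed-mean test). In KO it was 0.67 (SE 0.20, 0.23 to 1.11, adjusted p = 0.0541). Limma on the deposited values, whose spread is understated, called both (adjusted p = 0.000611 in WT and 7.65e-05 in KO), as it did 44.6% of all genes in WT and 46.5% in KO in either direction. On chromosome 13 from 51408639 to 51422797 (plus strand), S1pr3 shares 45 exon bases, 1.008% of its exon length, with Gm32834 on the opposite strand, and the use of strand in counting is not given in the sources used here.

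Aspg, the asparaginase gene, was the faintest of the 6 in CL, with about 4.3 to 14.2 reads per library over both genotypes. It ran from -0.43 to 0.19 log2 CPM in CL WT (median -0.31) and from 1.41 to 2.50 in PI WT (median 1.83). In KO it ran from -0.27 to 0.40 in CL (median 0.06) and from 1.69 to 2.23 in PI (median 1.86). PI WT libraries 3 and 4 were high, at 2.50, and libraries 5 and 6 low, at 1.41, so the WT change had the widest interval of the 6. Aspg rose by 2.10 in WT (SE 0.40, 1.23 to 2.96, adjusted p = 0.00502) and by 1.86 in KO (SE 0.32, 1.18 to 2.54, adjusted p = 0.00303). It lies on chromosome 12 from 112106679 to 112127559, on the plus strand.

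The deposited values of all 6 genes were higher in PI without overlap in both genotypes. Of all genes, 16.5% were so in WT and 17.1% in KO.

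**Figure D2:**
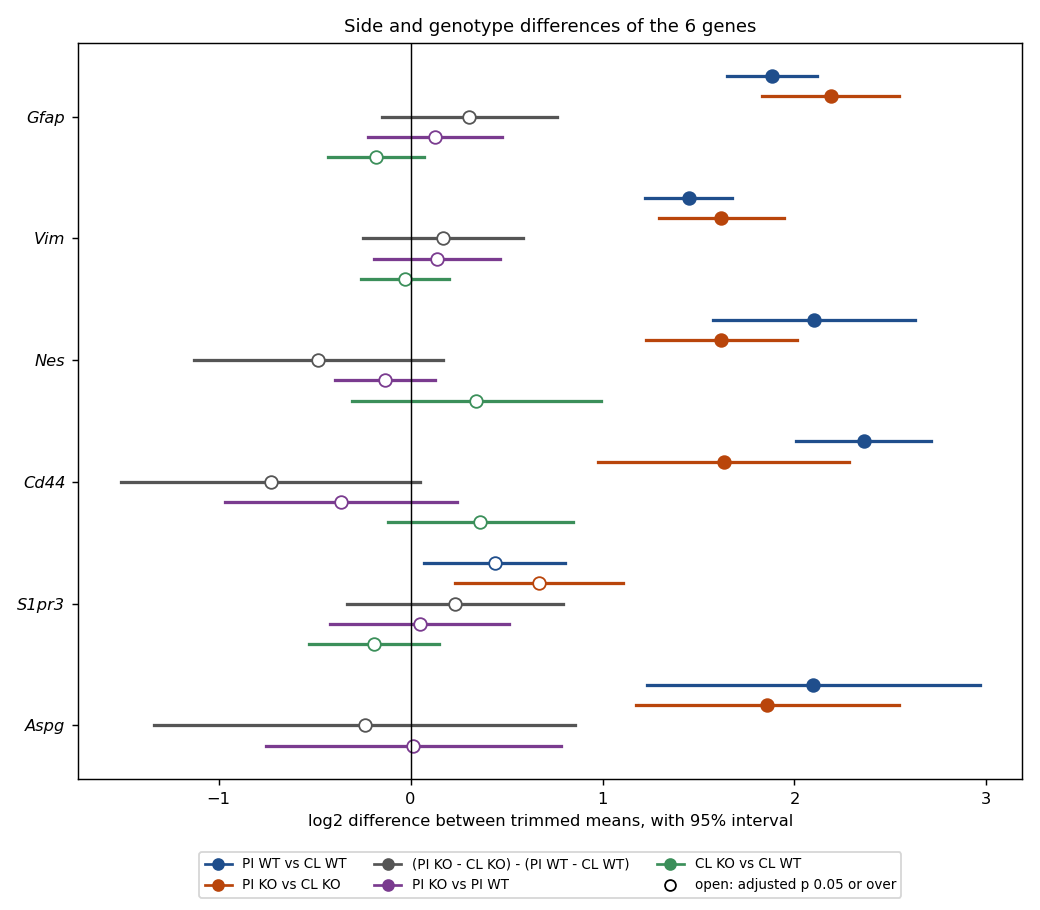
Differences on the log2 scale (x axis) with 95% intervals for the 6 genes in the comparisons of side, of genotype and of the side change between genotypes; filled points passed an adjusted p of 0.05. Filled points appear in the PI against CL comparisons of 5 genes, and every interval of a genotype comparison includes 0.

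Within PI, the comparison of KO with WT asked whether the 6 genes depended on ciRS-7 in these samples. Of these, 0 of 6 were called by the moderated trimmed-mean test, where 0.0208% of 14452 genes were called. None (0 of 6) had an unadjusted p under 0.05, against 5.75% of all genes, and limma on the deposited values called 0 of 6, against 16.5%. Gfap values ran from 7.86 to 8.41 log2 CPM in PI KO (median 8.17) and from 7.87 to 8.15 in PI WT (median 8.04), a difference of 0.13 (95% interval -0.22 to 0.47, adjusted p = 0.935). Vim ran from 5.96 to 6.42 in PI KO and from 6.04 to 6.19 in PI WT, a difference of 0.14 (-0.19 to 0.47, adjusted p = 0.918). For both filaments the KO libraries reached lower and higher than the WT libraries. Nes was the exception in position: PI KO ran from 2.87 to 2.99 and PI WT from 3.00 to 3.14, without overlap, as did 14.1% of all genes in either direction, and the difference was -0.13 (-0.39 to 0.13, adjusted p = 0.91).

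Cd44 differed most between genotypes in PI, at 3.26 to 4.14 log2 CPM in PI KO (median 3.39) against 3.76 to 4.13 in PI WT (median 4.00). The ranges overlapped because of the 2 high KO libraries, and the difference was -0.36 (SE 0.28, -0.97 to 0.24, adjusted p = 0.889). S1pr3 ran from 2.47 to 2.98 in PI KO and from 2.51 to 2.95 in PI WT, a difference of 0.05 (-0.42 to 0.51, adjusted p = 0.986). Aspg ran from 1.72 to 2.26 in PI KO and from 1.44 to 2.53 in PI WT, a difference of 0.01 (-0.75 to 0.78, adjusted p = 0.997). These intervals reach down to -0.97 on the log2 scale for Cd44 and up to 0.78 for Aspg.

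Within CL, 0 of the 5 listed genes were called between KO and WT, where 0.0279% of 14323 genes were called, and 0 had an unadjusted p under 0.05, against 5.73% of all genes. Gfap ran from 5.73 to 6.07 log2 CPM in CL KO and from 5.93 to 6.17 in CL WT, a difference of -0.18 (-0.43 to 0.07, adjusted p = 0.902). Vim differed by -0.03 (-0.26 to 0.20, adjusted p = 0.991), with CL KO from 4.54 to 4.62 lying inside the range of CL WT, 4.45 to 4.78. Nes ran from 1.11 to 1.45 in CL KO and from 0.53 to 1.32 in CL WT, a difference of 0.34 (-0.31 to 0.99, adjusted p = 0.94). The CL WT range for Nes was wider than that of CL KO, again from libraries 2, 3 and 5.

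Cd44 ran from 1.61 to 2.11 log2 CPM in CL KO and from 1.39 to 1.71 in CL WT, overlapping, with a difference of 0.36 (SE 0.22, -0.12 to 0.85, adjusted p = 0.902). Limma on the deposited values gave it an adjusted p of 0.0448 and called 16.1% of all genes. S1pr3 was lower in CL KO in deposited values, 1.89 to 2.10 against 2.14 to 2.24 in CL WT, without overlap, as in 13.5% of all genes in either direction. Its difference was -0.19 (-0.53 to 0.15, adjusted p = 0.936).

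The test of whether the PI minus CL change itself differed between KO and WT used all 24 libraries and 14211 genes. It called 0 of the 6 genes, 0 of which had an unadjusted p under 0.05, and 0% of all genes, 646 of which had an unadjusted p under 0.05. The change in KO minus that in WT was 0.31 for Gfap (95% interval -0.15 to 0.76), 0.17 for Vim (-0.25 to 0.59) and -0.48 for Nes (-1.13 to 0.17) on the log2 scale. For Cd44 the difference was -0.73 (SE 0.37, -1.51 to 0.05), beside -0.36 between the PI groups and 0.36 between the CL groups in their own tables. S1pr3 gave 0.23 (-0.33 to 0.79) and Aspg -0.24 (-1.34 to 0.86). Each adjusted p was 0.992, and the intervals of all 6 included 0. Limma on the deposited values called 1 of the 6, Cd44 (adjusted p = 0.0179), and 13.7% of all genes.

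Levels can be compared between genes only per length, here as CPM per kb of merged exons in GENCODE M21. In PI WT the order was Gfap at 60.3, Vim at 14.4, Cd44 at 2.26, S1pr3 at 1.43, Nes at 1.28 and Aspg at 1.07 CPM per kb. PI KO gave the same order, with 65.5, 15.8, 1.75, 1.47, 1.16 and 1.08. In PI WT the recovered values of S1pr3 overlapped those of Nes, and Nes those of Aspg; in PI KO, Cd44 also overlapped S1pr3. In CL, S1pr3 ranked above Cd44: CL WT had Gfap at 16.4, Vim at 5.26, S1pr3 at 1.05, Cd44 at 0.44, Nes at 0.298 and Aspg at 0.25. In CL KO the values were 14.4, 5.13, 0.922, 0.564, 0.378 and 0.298 in the same order as CL WT. Neighbours from Cd44 to Aspg overlapped in both CL groups. Cd44 stood below S1pr3 in CL and above it in PI WT, and in PI KO the values of the pair overlapped.

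**Figure D3:**
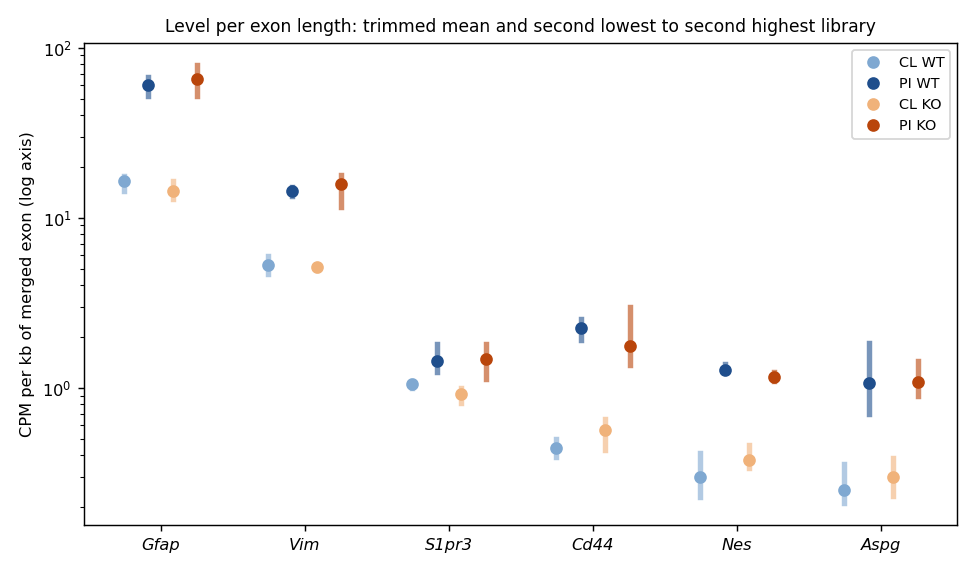
Level per length of the 6 genes in the 4 groups, in CPM per kb of merged exons on a log axis; points are trimmed means and lines span the 4 recovered values. Gfap and Vim stand apart from the other 4 in every group, and the trimmed mean of Cd44 lies below that of S1pr3 in CL and above it in PI.

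Libraries held their place across the 6 genes to different degrees. In every gene 2 of 6 libraries share the lowest value and 2 the highest. Such positions were not counted over all genes, so they are not shown to be a trait of these 6. In PI KO, library 4 shared the lowest value in 6 of 6 genes and library 6 in 5, while libraries 1, 2 and 5 did so in 0. In PI WT, library 1 shared the highest value in 5 of 6 genes and library 3 in 4. In CL WT library 6 shared the highest in 5, and in CL KO library 4 shared the lowest in 5. For Cd44, library 6 of PI KO lay among the inner values, at 3.43 log2 CPM, above library 1. Libraries 2 and 5, high for Cd44, shared the lowest value in 0 genes.

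Other genes of reactive astrocytes were read from lists chosen with earlier results of these data known. Beside their counts stand the shares of all genes called higher, 5.20% in WT and 5.11% in KO. Of 8 genes raised in reactive astrocytes of any kind, a set given here without those of the 6 genes that belong to it, 7 of 7 listed were called higher in PI in WT and 6 of 6 in KO. Lcn2, Timp1, Hspb1 and Steap4 are not listed where only CL groups are compared and may have entered through their PI level. Of the 3 listed in the CL table too, 3 were called higher in each genotype, with medians of 2.51 and 2.62 on the log2 scale (all genes, 0.0105 and -0.000678). Lcn2, an iron-binding lipocalin, rose by 3.38 in WT and 3.52 in KO, Timp1, a metalloproteinase inhibitor, by 2.71 and 2.59, and Serpina3n, a protease inhibitor, by 2.54 and 2.72. Among genes reported after ischemia (A2), 6 of 10 were called higher in WT and 6 of 8 in KO. Cd14, Tgm1, Ptx3, Sphk1 and B3gnt5 are not listed in the CL table. Of the other 5, 3 were called higher in WT and 5 in KO, with medians of 0.65 and 1.06. Of the genes called in both genotypes, Cd14, Emp1 and Tm4sf1 had the largest changes, 3.41, 1.91 and 1.41 in WT and 3.04, 1.82 and 1.62 in KO. Ptx3 and Tgm1 were also called in WT and are not listed in the KO table of PI and CL: Ptx3, a pentraxin named after its values were seen, rose by 4.88. The recovered CL values of Tgm1 were all under 3 reads, so it was at least 11.7-fold higher. Among genes reported after inflammation (A1), 4 of 10 were called higher in WT and 6 of 10 in KO, led by Iigp1 (2.50 and 3.52, not listed in the CL table), Gbp2 (2.28 and 2.81) and Srgn (1.74 and 1.44). Of the 9 listed in the CL table too, 3 were called higher in WT and 5 in KO, with medians of 0.66 in each. In all 3 lists 0 genes were called lower.

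Of 17 further intermediate filament and linker genes, 10 were listed, with medians of 0.07 in WT and -0.11 in KO. In WT 0 were called higher and 1 lower, where 5.20% of all genes were called higher and 5.40% lower. In KO 1 was called higher and 1 lower, where the shares were 5.11% and 4.94%. An unadjusted p under 0.05 was found for 3 of 10 in each genotype, against 23.9% and 24.9% of all genes. Limma on the deposited values called 4 in WT and 5 in KO, against 44.6% and 46.5%. Nefl, the light neurofilament of neurons, fell by 0.41 in WT (adjusted p = 0.00291) and 0.31 in KO (adjusted p = 0.00427). Synm, the synemin gene that joins the astrocyte filament network, stood at -0.06 in WT and -0.22 in KO (adjusted p = 0.735 and 0.322), and Lmna, of the nuclear lamina, stood at 0.28 in WT (adjusted p = 0.0542) and rose by 0.34 in KO (adjusted p = 0.0345). Synm and Lmna were singled out after their values were seen.

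Around Cd44, 4 of 14 listed ligands, hyaluronan enzymes and adaptors were called higher in each genotype and 0 lower. The shares of all genes called higher and lower were 5.20% and 5.40% in WT and 5.11% and 4.94% in KO. Spp1, the ligand osteopontin, rose by 1.65 in WT and 1.46 in KO. Msn and Ezr, which encode moesin and ezrin and tie Cd44 to actin, rose by 1.47 and 0.36 in WT and by 1.05 and 0.48 in KO. Around S1pr3, 1 of 11 genes of sphingosine 1-phosphate signalling was called higher and 3 lower in WT, and 1 higher and 0 lower in KO. The gene called higher in each was Sgpl1, the lyase that degrades the lipid, by 0.49 and 0.26. The receptor S1pr1, named after its values were seen, fell by 0.28 in WT (adjusted p = 0.0456) and stood at -0.22 in KO (adjusted p = 0.0696). Around Aspg, 0 of 5 genes of asparagine metabolism were called higher, and 2 in WT and 1 in KO were lower. Asrgl1, a different enzyme with asparaginase activity, fell by 0.28 in WT (adjusted p = 0.0212) and 0.34 in KO (adjusted p = 0.0187), the opposite direction to Aspg.

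Of 12 astrocyte transcription regulators and cytokine receptors, 4 were called higher and 1 lower in WT, and 4 higher and 2 lower in KO. Over all genes, 5.20% were called higher and 5.40% lower in WT, and 5.11% and 4.94% in KO. Osmr, the oncostatin M receptor, which is also in the reactive astrocyte list, rose by 2.51 in WT and 2.62 in KO. Socs3, an inhibitor induced by STAT3, rose by 2.43 and 2.35, and Stat3 itself by 1.15 and 1.18. Of 12 markers of resting astrocytes, 1 was called higher and 3 lower in WT and 1 higher and 1 lower in KO. Called or not, only 2 of the 12 were higher in PI in each genotype, with medians of -0.15 in WT and -0.12 in KO. Gja1, the gap junction protein connexin 43, fell by 0.35 and 0.43, and the water channel Aqp4 rose by 0.27 and 0.41. Their summed level ran from 6957 to 7375 CPM in PI WT against 7984 to 8381 in CL WT, and from 6748 to 7459 in PI KO against 7980 to 8490 in CL KO. Slc1a2, a glutamate transporter, made up 78.3% to 81.9% of these sums over the 4 groups. Without it the sums were 1371 to 1503 CPM in PI WT against 1522 to 1597 in CL WT, and 1431 to 1527 in PI KO against 1515 to 1564 in CL KO, where they overlapped.

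**Figure D4:**
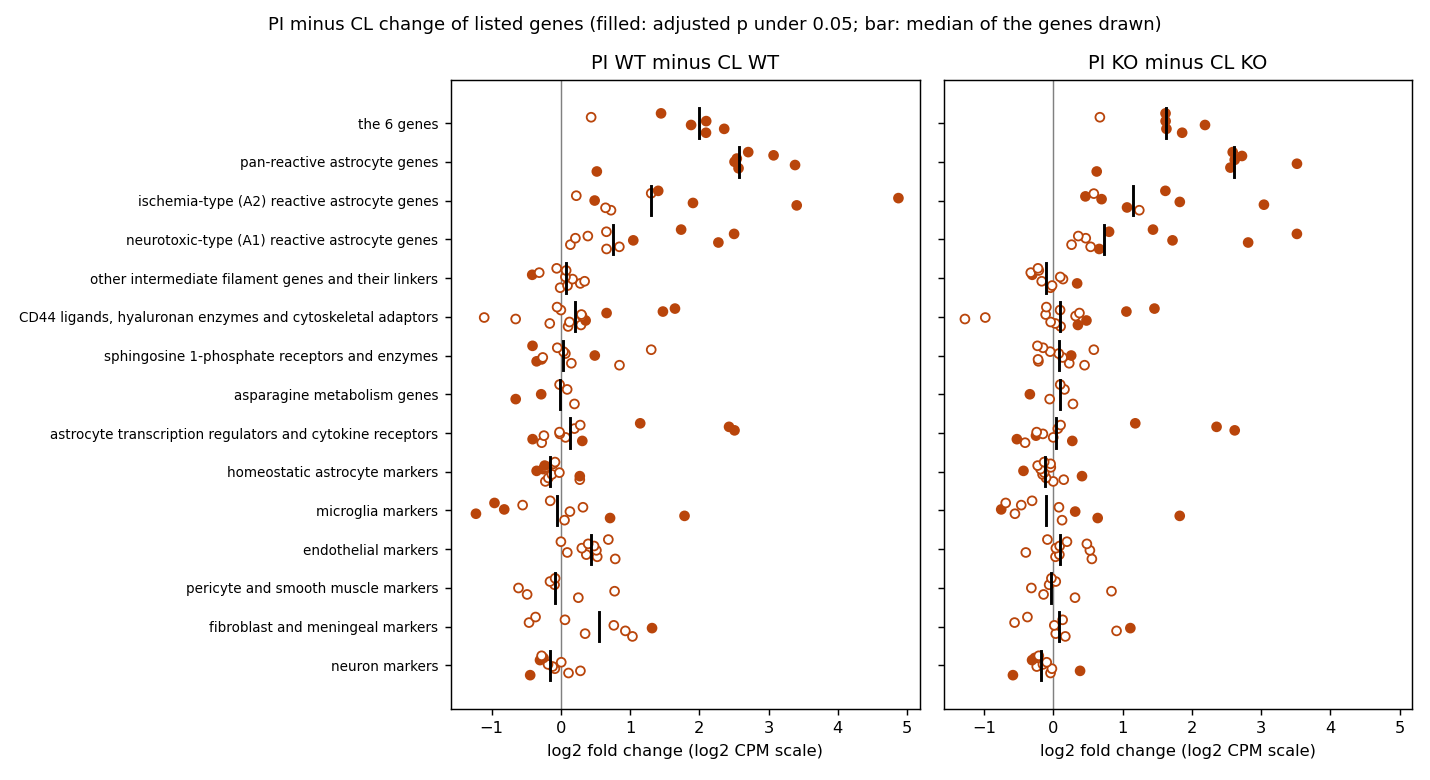
PI minus CL differences on the log2 scale for the 6 genes and the listed genes of 14 lists, in WT (left) and KO (right); each point is 1 gene, filled where the adjusted p was under 0.05, and bars are medians of the genes drawn. Tgm1 in WT is left out because its CL level was under 3 reads. The reactive astrocyte lists lie to the right of 0 with the 6 genes, and the other filament genes lie around 0. Of the 12 resting astrocyte markers, 2 lie to the right of 0 in each genotype, with medians of -0.15 and -0.12.

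Other cells that can make Vim, Cd44, Nes or S1pr3 were read in the same samples, where 5.20% of all genes were called higher and 5.40% lower in WT. The shares in KO were 5.11% and 4.94%. Of 10 microglia markers, 2 were called higher and 3 lower in WT and 3 higher and 1 lower in KO, with Fcrls up by 1.79 and 1.82, Cx3cr1 up by 0.71 and 0.64 and P2ry12 down by 0.82 and 0.75. Their summed level was 194 to 225 CPM in PI WT against 186.4 to 201.7 in CL WT, and 215.4 to 262 in PI KO against 196.7 to 221.7 in CL KO. Endothelial markers gave 0 calls of 10 in each genotype (3 and 2 with an unadjusted p under 0.05, against 23.9% and 24.9% of all genes, and 5 and 3 by limma on the deposited values), with a summed level of 61.3 to 95.2 CPM in PI WT against 48.9 to 75.3 in CL WT, and 69.1 to 83.1 in PI KO against 58.6 to 71.7 in CL KO. By direction alone, 10 of 10 were higher in PI in WT and 8 of 10 in KO. Their median differences were 0.44 and 0.09 (all genes, 0.0105 and -0.000678). Cdh5, of endothelial junctions, differed by 0.79 in WT (adjusted p = 0.0542) and 0.55 in KO (adjusted p = 0.124), and Pecam1 by 0.40 and 0.48 (adjusted p = 0.486 and 0.0818).

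Of 8 fibroblast and meningeal markers 1 was called in each genotype, the proteoglycan gene Dcn, up by 1.32 and 1.11, and their sum was 99.9 to 113.8 CPM in PI WT against 79.8 to 95.8 in CL WT, and 105.4 to 117.5 in PI KO against 82.8 to 96.9 in CL KO. Pdgfra made up 46% to 66.5% of these sums over the 4 groups. Without it they were 45.7 to 54.5 CPM in PI WT against 28.6 to 36.5 in CL WT. In KO they were 49.3 to 61.2 in PI against 35.8 to 46.5 in CL. Pericyte and smooth muscle markers gave 0 calls of 7 (2 with an unadjusted p under 0.05 and 3 by limma on the deposited values in each genotype), with Kcnj8 at 0.78 and 0.84 and Abcc9 at 0.25 and 0.31. Only 2 of these 7 were higher in PI in WT and 3 in KO, with medians of -0.09 and -0.03. Of the progenitor and ependymal markers 6 of 10 were listed, of which 0 were called higher in either genotype. Called lower were 1 in WT and 2 in KO, and Prom1 fell by 0.81 and 1.08. By direction alone, 1 of the 6 was higher in PI in each genotype, with medians of -0.17 and -0.18. Proliferation markers gave 0 calls of 5 (2 with an unadjusted p under 0.05 and 3 by limma on the deposited values in each genotype), with Mcm2 at 0.67 and 0.63. Of 12 neutrophil and monocyte markers 1 was listed in the tables of PI and CL, Csf3r, at -0.04 and -0.34, while S100a8, S100a9 and Ly6g were not listed there, and 0 of 8 markers of T and B cells were listed. Where PI KO is set beside PI WT, 3 of the 12 were listed, Csf3r, S100a8 and S100a9. There 3 of 3 were higher in KO, with a median of 0.77, and 0 were called (0.0208% of all genes). Of these, 1 had an unadjusted p under 0.05, against 5.75% of all genes. Their sum was 5.2 to 11.3 CPM in PI KO and 3.8 to 5.7 in PI WT. Of 10 neuron markers, Camk2a, Snap25 and Syt1 were called lower in both genotypes, by 0.44, 0.30 and 0.25 in WT and 0.59, 0.31 and 0.27 in KO, and 1, Gad2, was called higher in KO (0.38, beside 0.28 in WT with adjusted p = 0.06). Of 8 oligodendrocyte markers 1 was called lower in WT, Cnp, at -0.41, beside Mbp at -0.46 (adjusted p = 0.0658). None (0 of 8) was called in KO, where 1 had an unadjusted p under 0.05 and limma on the deposited values called 4, and Cnp stood at -0.16 and Mbp at -0.23 (adjusted p = 0.474 and 0.321). The part of these markers in the changes of the 6 genes was not tested. Their counts stand beside 5.20% of all genes called higher and 5.40% lower in WT, and 5.11% and 4.94% in KO.

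Between KO and WT, 0 of 158 genes of all these lists were called in PI (9 with an unadjusted p under 0.05, 27 by limma on the deposited values) and 0 of 144 in CL (14 and 34). The test of the side change between genotypes called 0 of 151 (3 and 10). Over all genes, 0.0208%, 0.0279% and 0% were called in PI, in CL and for the side change. An unadjusted p under 0.05 was found in 5.75%, 5.73% and 4.55% of all genes. Limma on the deposited values called 16.5%, 16.1% and 13.7%.

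The genes whose deposited profile was nearest to each of the 6 were found by the root mean square difference of log2 CPM over the 24 libraries of the 2 PI and CL tables, after centring each gene within each table, among 14181 genes. This is a description, and the 24 libraries share sides and animals. Nearest to Gfap were Mt2, a metallothionein (0.166), Gbp3, an interferon-inducible GTPase (0.184), and Tnfrsf1a, a tumor necrosis factor receptor (0.191). Nearest to Vim were Dab2, an endocytic adaptor (0.0951), Tm4sf1 (0.127) and Plek, of blood and immune cells (0.142). Nes and Cd44 had the same 3 neighbours: Slc14a1, a urea transporter, at 0.221 and 0.298, C3ar1, the receptor for complement C3a, at 0.243 and 0.265, and Aldh1a2, a retinoic acid enzyme, at 0.258 and 0.313. Slc14a1 was also nearest to Aspg (0.248), followed by Gfap and Rhoj, a small GTPase (0.33 each). S1pr3 had other neighbours, Odc1, of polyamine synthesis (0.122), Csf1, a growth factor of microglia (0.129), and Syde1 (0.132). Odc1 rose in PI by 0.64 in WT and 0.78 in KO and Csf1 by 0.58 and 0.62, sizes near that of S1pr3 (0.44 and 0.67), and both were called while S1pr3 was not. Syde1, at 0.29 in WT and 0.46 in KO, was not called either (adjusted p = 0.427 and 0.163, moderated trimmed-mean test).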

How the data were processed

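Cortex RNA (TRIzol, DNase by TURBO DNA-free) was sequenced from CORALL libraries after removal of ribosomal RNA by RiboCop, per the labels' protocols. The build was mm10, per the submitters' processing notes. Aligner, counting, annotation, strand, filter and scaling are not given in the sources used here. The authors deposited log2 CPM values in 4 tables, 1 per pair of groups, per the file headers. Groups were compared within a table, since scaling differs: the median gene of 1 library is off by 0.0265 to 0.0332 from table to table. The test of the side change joins 2 tables by subtracting the difference found within each.

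Those log2 values are Winsorized, which no label records. The weights were taken to be those of a quartile of 6 values, and the ties alone do not show them. A tied low value was taken as a sum of the second lowest value, weighted 0.75, and the next, weighted 0.25. The mirror rule was used for high values. Solving this rule gave 4 inner values per gene and group of 6. Groups were compared by a moderated trimmed-mean test (limma 3.58.1 squeezeVar with a trend, R 4.3.3, two-sided, Benjamini-Hochberg over all genes of the table). It was checked on simulated data drawn in by the same rule, which cannot test the rule itself. A count test was not possible on drawn-in values. Limma on the deposited values, a replicate block, no variance trend, centring, a filter of 1 CPM and a pseudocount of 0.5 CPM were alternatives. SE is the standard error from the recovered values (n = 6).

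The 6 genes and all lists were chosen with earlier results of these data known. Besides the 6, the text names from each list up to 3 genes called in both PI and CL comparisons with the largest mean change, or else the 2 with the smallest p, and the 3 genes nearest to each of the 6. CL and PI libraries with the same number come from 1 animal, per the titles. The main test did not use this pairing, and only the replicate block did. The deviations of same-animal libraries correlated from -0.0281 to 0.252 in WT and from -0.00487 to 0.22 in KO, across genes. All columns of values were used (0 left out).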

Additional observations from a re-analysis of the deposited data

How the results depend on the processing

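In PI against CL, the 5 genes called in each genotype stayed called under each of the 6 alternatives run. Limma on the deposited values, with or without the replicate block, kept every call of the main test, so it is no independent check. Under limma on the deposited values there were 6459 calls in WT and 6666 in KO in place of 1537 and 1440, and a prior variance without a trend called 1015 and 739. Between KO and WT, that test made 2388 calls in PI and 2311 in CL in place of 3 and 4, and 1940 for the side change between genotypes in place of 0. It called 1 of the 6 genes in CL and 1 for the side change, Cd44 in each. With the replicate block, in which the animal pairs PI with CL, the same test gave 6614 calls in WT, 6759 in KO, 1800 between genotypes in PI, 1868 in CL and 2216 for the side change, and 1 of the 6 genes in CL and 1 for the side change. Under the replicate block S1pr3 had an adjusted p of 0.00186 in WT and 0.000256 in KO, and Cd44 0.0273 in CL and 0.00684 for the side change. The number names different animals across genotypes, so the block there pairs none. The deposited values have an understated spread, which these 2 settings share. Only centring and the pseudocount alter the differences themselves, and under these no difference of the 6 genes changed sign. The other alternatives return the same differences, so their signs could not change. Depth limits Aspg and Nes most, which rest on few reads in CL.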
